A study of Mus musculus with 24 samples.

Results

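The difference between a curcumin diet and a standard diet was measured in the whole colon of BALB/c mice, over mice given a control enema and mice given an enema of TNBS (trinitrobenzene sulphonic acid, a hapten that causes colitis). The comparison used 12 of the 24 samples of the series, all 12 hybridised to the 430A array of the Affymetrix MOE430 set. Of these, 6 came from the curcumin diet (2%) and 6 from the standard diet, and each diet was represented by 3 arrays of the control enema and 3 of the TNBS enema. The 4 groups were therefore standard diet with control enema, curcumin diet with control enema, standard diet with TNBS enema and curcumin diet with TNBS enema. All mice were BALB/c of 6 to 8 weeks, with no genotype named beyond a mention of wild-type littermates, and began their diet 2 days before the enema, and the colon was taken on day 7 after it. RNA of 3 mice was pooled in each diet and enema group. Whether these 3 arrays per group hold RNA of different pools is not stated, so the p-values measure only the spread between these samples, which may be technical. Whole colon was dissected, so epithelium, muscle, nerve, immune cells and attached tissue were read together, and fewer cells of a type and less RNA per cell cannot be told apart.

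Curcumin is the yellow diarylheptanoid of turmeric, an electrophile that reacts with cysteine thiols. Through the thiols of Keap1 such compounds release the transcription factor Nrf2, which drives genes of glutathione synthesis, glutathione transfer and quinone reduction. Curcumin is also known as an inhibitor of NF-kappa B, the factor that drives cytokine genes in colitis and also the gene of its own inhibitor, Nfkbia. Other stress pathways that were followed are the unfolded protein response, in which the endoplasmic reticulum (ER) raises its chaperones, and the SREBP pathway, in which low sterol in the ER membrane turns on the genes of cholesterol synthesis.

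The promoters of 4 genes that carry the results below are shown, all 4 of them higher on curcumin. The diet difference of each had the same sign under both enemas, and each belongs to one of these pathways. No promoter of a gene lower on curcumin is printed. Each is the 250 bases before the annotated start, from RefSeq on build GRCm38.p6, printed in the direction of transcription. Capitals mark the fixed letters of the motifs searched on both strands: the ER stress element (CCAAT, 9 bases of any kind, then CCACG), the sterol element (ATCAC, any base, then CCAC) and its shorter core TCACNCCAC, and the antioxidant response element TGACNNNGC.
Hspa5, chr2:34771840-34772089, plus strand: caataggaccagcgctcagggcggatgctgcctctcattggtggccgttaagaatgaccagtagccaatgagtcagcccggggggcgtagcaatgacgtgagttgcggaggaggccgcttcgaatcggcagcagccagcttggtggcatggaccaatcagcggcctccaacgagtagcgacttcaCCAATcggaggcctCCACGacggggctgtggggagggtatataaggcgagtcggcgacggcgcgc
Dnajb9, chr12:44210069-44210318, minus strand: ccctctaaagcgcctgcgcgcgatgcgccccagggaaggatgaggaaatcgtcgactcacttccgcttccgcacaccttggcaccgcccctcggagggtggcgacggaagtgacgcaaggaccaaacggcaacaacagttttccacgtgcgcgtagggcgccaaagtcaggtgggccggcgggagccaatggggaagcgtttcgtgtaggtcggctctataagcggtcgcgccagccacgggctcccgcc
Hmgcs1, chr13:119690101-119690350, plus strand: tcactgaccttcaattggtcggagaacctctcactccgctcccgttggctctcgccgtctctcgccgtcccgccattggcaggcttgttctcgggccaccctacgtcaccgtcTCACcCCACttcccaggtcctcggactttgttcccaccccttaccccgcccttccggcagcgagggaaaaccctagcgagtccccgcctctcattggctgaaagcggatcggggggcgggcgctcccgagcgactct
Gclm, chr3:122245307-122245556, plus strand: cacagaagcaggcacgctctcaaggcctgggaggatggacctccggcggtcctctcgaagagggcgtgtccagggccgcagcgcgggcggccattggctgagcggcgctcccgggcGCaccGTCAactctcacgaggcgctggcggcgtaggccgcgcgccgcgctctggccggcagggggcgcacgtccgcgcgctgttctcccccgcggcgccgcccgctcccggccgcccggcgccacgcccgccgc

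The ER stress element lay 65 to 47 bases before the start of Hspa5, and none of the motifs was found in the window of Dnajb9. The sterol core lay 137 to 129 bases before the start of Hmgcs1. It was added after that window had been read, because the sterol element itself was found in no window of the cholesterol list, and it overlaps the longer element by construction. The antioxidant element lay on the reverse strand of Gclm, 134 to 126 bases before its start. Of 32851 windows of this length in the RefSeq table, 0.113% held the ER stress element, 0.192% the sterol element, 1.05% its core and 10.2% the antioxidant element. Counted by gene, as the lists are, the shares of 27025 genes were 0.130%, 0.226%, 1.22% and 11.5%. Among the gene lists described below, 9 of 28 matched genes of the unfolded protein response held the ER stress element, 1 of 22 of the cholesterol list held the sterol core and 6 of 30 of the Nrf2 list held the antioxidant element. Among the genes named by rule below, the ER stress element was found in 0 of 9 matched higher genes and 1 of 10 matched lower genes. The latter was Ero1b, on the reverse strand, 201 to 183 bases before its start. The antioxidant element was found in 2 of the 9 higher genes (Ikbkg and Trim2) and 2 of the 10 lower genes (Nfkbia and Strbp). A match is a description of letters in the window and not evidence of binding.

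Over both enemas, 0 of 22626 probe sets passed an adjusted p under 0.05 for diet in limma (0%). At an unadjusted p under 0.05 there were 552 probe sets (2.44%), 295 higher and 257 lower on curcumin. The share higher was 53.4%, and 67.1% of 493 when each array was centred on its median. The smallest adjusted p in limma was 0.0725, for 1 probe set, and the next was 1.00. Every gene named below is therefore given as a value that did not pass, with an adjusted p of 1.00 unless another value is stated. All differences are log2 of the curcumin signal minus log2 of the standard signal, with enema as a term and the standard error (SE) of the model, and n = 6 arrays per diet. The median SE was 0.21.

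The arrays themselves limited this comparison. The first principal component, 31.4% of the variance, split them into sets of 6 and 6 that cut across both factors, with 3 arrays of each diet in each set. Within an enema the sets were not balanced. The first set held 2 curcumin and 1 standard array of the control enema, and 1 curcumin and 2 standard arrays of TNBS. A difference between the sets therefore enters the diet differences under the 2 enemas with opposite signs. Pairs of arrays correlated at 0.940 on average when they shared a set and at 0.908 when they did not. The sets were made from these same values, so a gap in that direction was built in and cannot be set against that of diet. Pairs that shared a diet correlated at 0.922, as did pairs that did not. A term for the array set leaves the diet difference over both enemas as it is and changes only its error, but it moves the differences under each enema. With that term, 1147 probe sets (5.07%) had an unadjusted p under 0.05 and 0 passed after adjustment. Transcripts of pancreatic acinar cells varied widely between arrays and unevenly between the diets, with no marker at an unadjusted p under 0.05 for diet. The summed signal of 7 acinar markers was above 10000 on 5 of 6 standard arrays and on 3 of 6 curcumin arrays, and their median difference was -2.31. This median was -2.07 under the control enema and -2.56 under TNBS. Of the 7 markers, 6 were below 0 under both enemas and 6 were of similar size by the rule given below, against 14.6% of all genes. The median was 1.42 within the first array set and -4.94 within the second. With the log2 acinar sum as a term, 477 probe sets had an unadjusted p under 0.05 and 42.1% of them were higher, and values from that fit are given beside the results they touch. The part of the acinar transcripts in the diet differences was not tested otherwise.

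The diet differences under the control enema and under the TNBS enema come from separate arrays, and mostly they did not have the same sign. Of all 22626 probe sets, 8727 (38.6%) had the same sign under both enemas, and 9072 (40.1%) did with the array set as a term. Without that term, only 3240 (14.3%) met the rule for a similar size, by which the smaller absolute log2 difference is at least 0.5 of the larger. Of the 552 probe sets with an unadjusted p under 0.05 for diet, 524 had the same sign and 261 (47.3%) a similar size, a share that the averaging over enemas itself favours.

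The 100 probe sets of smallest p for diet under the control enema were then read on the TNBS arrays. There, 31 of them (exact 95% interval 22.1 to 41.0) kept their sign, with a median of -0.20 in the chosen direction, and 8 were of similar size. Of the 100 chosen under the TNBS enema, 21 (13.5 to 30.3) kept their sign under the control enema, with a median of -0.17. A term for the array set gave 29 and 26 in place of 31 and 21. In that fit both differences use a set estimate made from all 12 arrays, so they no longer come from separate arrays. The error of that estimate enters them with opposite signs. Over all probe sets, 38.6% had the same sign without that term and 40.1% with it. The intervals treat the probe sets as independent, which probe sets read on the same arrays are not, so they are likely too narrow. Both medians lay on the opposite side of 0 from the differences that had chosen the probe sets, so the probe sets of smallest p under one enema did not on balance carry over to the other.

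**Figure D1:**
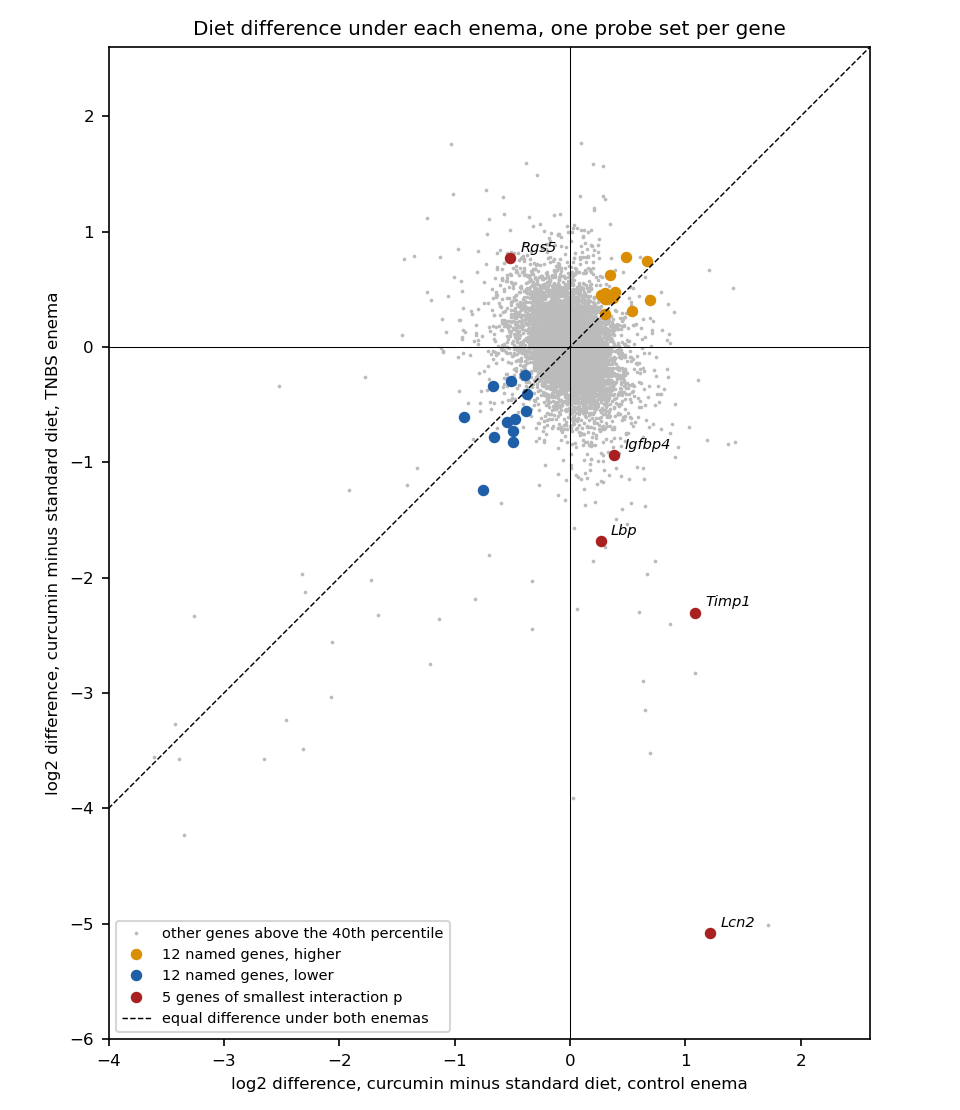
Log2 diet difference (curcumin minus standard) under the control enema on the x axis and under the TNBS enema on the y axis, 1 point per gene above the 40th percentile of signal. The 12 named higher genes (orange) and 12 named lower genes (blue), chosen for similar size, lie along the dashed line of equal difference, and the 5 genes of smallest interaction p (red) lie in the quadrants of opposite sign.

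A single probe set, 1421041_s_at, stood first by p in every setting tried. The annotation pairs it with 3 genes, so no gene is named. Its signals on standard diet were 329.1, 320.8 and 363.3 with the control enema and 328.4, 377.9 and 299.9 with TNBS. On curcumin they were 642.1, 557.3 and 720.8 with the control enema and 526.4, 572.7 and 556.2 with TNBS. Every curcumin array was above every standard array. The difference was 0.82 ± 0.11 (SE), a fold of 1.77, with an adjusted p of 0.0725 in limma, and it was 0.92 under the control enema and 0.72 under TNBS. It was 0.80 and 0.85 within the array sets and 0.83 with the acinar term, where the adjusted p was 0.571. The adjusted p was below 0.05 only with the filter on dim probe sets (0.0330), with quantile normalisation (0.0446), with array weights (0.0258) and with array set and filter together (0.0248).

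Genes of the ER stress response were higher on curcumin in 5 of 33 measured members at an unadjusted p under 0.05, and none was lower. In all list counts below, higher and lower refer to this unadjusted threshold. Over all 12393 genes, 1.48% were higher and 1.25% lower at that threshold. With the acinar term, 120 of the 12393 were higher and 159 lower. In the fits that left out an array, 392 to 989 probe sets had an unadjusted p under 0.05, the most without the third curcumin control sample. List counts from those fits are given without a share of all genes and move with that background. Hspa5, the main ER chaperone BiP, had signals of 5477.9, 4827.4 and 3963.4 on standard diet and 7051.0, 9262.8 and 9412.0 on curcumin with the control enema. The TNBS values were 6693.4, 4997.0 and 4913.3 on standard diet and 6714.9, 7953.3 and 6711.8 on curcumin. All 6 curcumin arrays were above all 6 standard arrays, narrowly so with TNBS. The difference was 0.61 ± 0.13 (unadjusted p = 0.000469, adjusted p = 1.00 in limma). It was larger under the control enema (0.85) than under TNBS (0.38), outside the rule for similar size, with an unadjusted interaction p of 0.0684. A second Hspa5 probe set gave 0.78, and there the enemas were further apart (1.33 and 0.22). In limma the adjusted interaction p of that probe set was 0.334, from an unadjusted 0.000797.

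Dnajb9, an ER co-chaperone of Hspa5 also called ERdj4, met the rule. Its signals were 2304.1, 2118.9 and 2182.5 on standard diet and 2898.1, 2552.1 and 2502.1 on curcumin with the control enema. Under TNBS the signals read 1898.7, 1800.0 and 1916.8 on standard diet and 2367.5, 2564.0 and 2736.0 on curcumin. No curcumin array reached down to a standard array. The difference was 0.36 ± 0.07 (unadjusted p = 0.000334), 0.27 under the control enema and 0.45 under TNBS, and 0.31 with the acinar term.

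Ddit3, the stress factor CHOP, was measured at 159.4, 428.7 and 269.1 on standard diet and 647.3, 822.9 and 647.9 on curcumin with the control enema. With TNBS the values were 344.2, 247.2 and 405.3 against 414.2, 486.8 and 498.2. The diets did not overlap within either enema, while the lowest curcumin array with TNBS lay below the highest standard array of the control enema. The difference was 0.96 ± 0.24 (unadjusted p = 0.00147), 1.41 under the control enema and 0.51 under TNBS. Atf4, the factor that acts before Ddit3, was higher by 0.22, and Hsp90b1, the ER chaperone GRP94, by 0.29, the latter all from the control enema (0.64 against -0.06). Thus 3 of the 33 genes had diets that did not overlap within either enema (Hspa5, Dnajb9 and Ddit3), against 0.153% of all genes in that direction. For most of the list the enemas differed. The list median was 0.23 under the control enema and -0.06 under TNBS, and Manf, Creld2, Dnajb11 and Hyou1, secreted or ER-resident folding factors, were higher by 0.60 to 0.79 under the control enema and lower under TNBS. Only 2 of 33 members were of similar size, Dnajb9 and the sensor kinase Ern1 (-0.29), against 14.6% of all genes. Of the 12 fits that left out an array, the count at unadjusted p under 0.05 ran from 4 to 6.

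**Figure D2:**
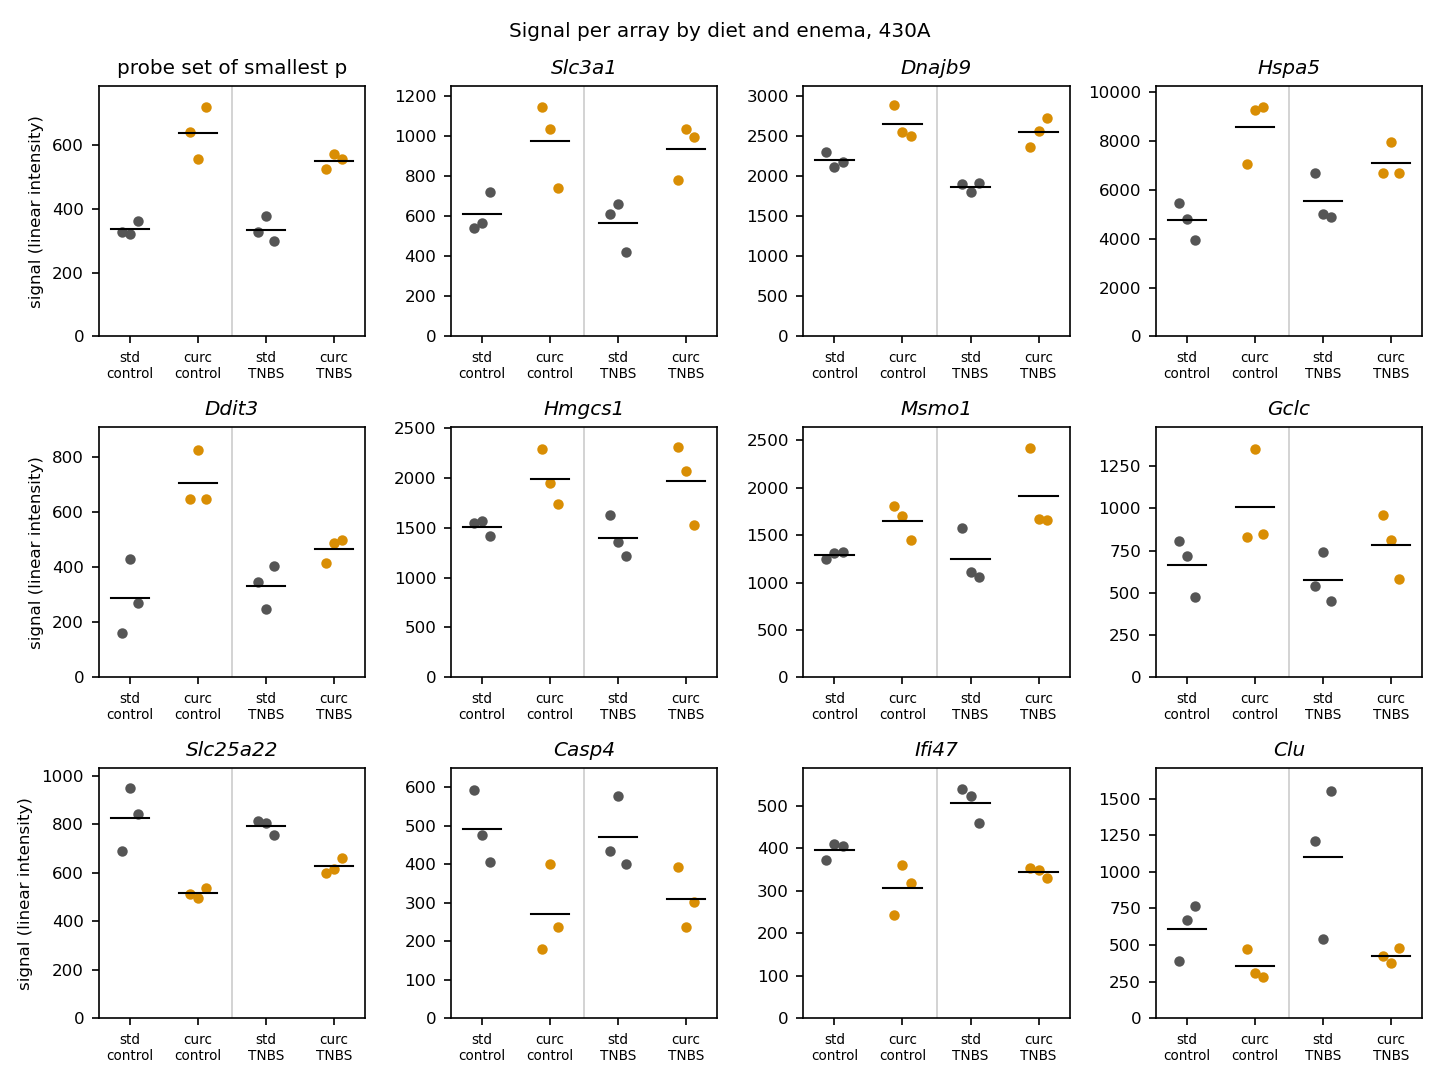
Signal on a linear scale from 0 on each 430A array (points, grey for standard and orange for curcumin diet) with the group mean (bar), for the probe set of smallest p and 11 genes. The curcumin points of Hspa5, Dnajb9 and Slc3a1 lie above all standard points, and those of Slc25a22, Casp4 and Ifi47 lie below them.

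The cholesterol list had nearly the same median diet difference under both enemas. Of 27 measured members, 7 were higher at an unadjusted p under 0.05 and 0 were lower, beside 1.48% and 1.25% of all genes. The list median was 0.17, with 0.15 under the control enema and 0.13 under TNBS, while the median of all genes was -0.01. Of the 27, 8 were of similar size, all above 0, where 14.6% of all genes were of similar size in either direction. In 5 (Msmo1, Stard4, Fdft1, Hmgcs1 and Nsdhl) the diets did not overlap within either enema, against 0.153% of all genes. The count ran from 5, without the first curcumin TNBS sample, to 10 over the fits that left out an array, and with the acinar term 7 were higher and 1 lower.

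Hmgcs1, the synthase that makes the substrate of HMG-CoA reductase at the start of the pathway, had signals of 1544.3, 1571.3 and 1414.4 on standard diet and 2289.7, 1954.1 and 1739.8 on curcumin with the control enema. On the TNBS arrays they stood at 1630.8, 1353.8 and 1221.6 against 2314.5, 2065.0 and 1529.5. The diets were apart with the control enema, and with TNBS on this probe set the lowest curcumin array lay under the highest standard array. The difference was 0.44 ± 0.11 (unadjusted p = 0.00201), 0.39 and 0.48 under the 2 enemas. The other 3 probe sets of Hmgcs1 gave 0.41 to 0.53, and the list counts use the one of highest mean, at 0.53. HMG-CoA reductase itself and Insig1 have no probe set on 430A annotated to them alone.

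Fdft1, squalene synthase, which commits the pathway to sterols, was higher by 0.55 ± 0.15 on one probe set (0.70 and 0.41 under the control and TNBS enemas) and by 0.30 on the one of highest mean. Its other 2 probe sets, at lower mean signal, gave -0.10 and 0.06. Msmo1, the methylsterol monooxygenase that removes methyl groups from lanosterol products, had signals of 1246.1, 1306.5 and 1322.0 on standard diet and 1802.0, 1706.3 and 1448.8 on curcumin with the control enema. With TNBS the values were 1576.1, 1107.8 and 1055.6 against 2422.7, 1667.8 and 1654.5. The diets did not overlap within either enema, and only the highest standard TNBS array exceeded any curcumin array. The difference was 0.48 ± 0.13 (unadjusted p = 0.00219), 0.35 and 0.62.

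Other enzymes of the same stretch were Cyp51, the lanosterol demethylase, at 0.31 (0.43 and 0.19), Lss, lanosterol synthase, at 0.31 (0.10 and 0.52), and Nsdhl, which acts with Msmo1, at 0.22 (0.33 and 0.12). Upstream, Fdps and Idi1, which make and join isoprenoid units, were at 0.28 and 0.24, and Sqle, squalene epoxidase, at 0.27. None of Lss, Fdps, Idi1 and Sqle had an unadjusted p under 0.05. Stard4, a soluble cholesterol carrier, had signals of 1637.2 to 1769.9 on standard diet and 1904.9 to 2469.2 on curcumin with the control enema, and of 1540.1 to 1786.7 against 1894.3 to 2120.0 with TNBS. All curcumin arrays were above all standard arrays. The difference was 0.29 ± 0.08 (unadjusted p = 0.00308), 0.31 and 0.28, and a second probe set gave 0.32. Scap, the escort that carries SREBP to the Golgi, was at 0.38 (0.23 and 0.54). The factors themselves lay near 0, Srebf2 at -0.04 and Srebf1 at -0.04, as did Dhcr7 (0.03), the last enzyme of the pathway. The efflux transporters Abca1 and Abcg5 were at -0.18 and -0.38, without an unadjusted p under 0.05.

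The neighbouring list of fatty acid and triglyceride synthesis had a median of 0.17 and 3 of 20 members higher, Fasn (0.53), Me1 (0.49) and Acly (0.22), which are fatty acid synthase, malic enzyme and ATP citrate lyase. That count was 0 without the first standard TNBS, the first curcumin TNBS or the second curcumin TNBS sample, 6 without the third curcumin control and 5 without the third curcumin TNBS sample, and 1 higher and 1 lower with the acinar term.

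Of the Nrf2 and glutathione genes, 10 of 37 measured were higher at an unadjusted p under 0.05 and 0 were lower. The list median was 0.19, 0.19 under the control enema and 0.26 under TNBS, and 32 of 37 were above 0 against 48.2% of all genes. Of these, 20 were above 0 under both enemas, beside 2355 of all 12393 genes. Of the 37, 9 were of similar size, 8 of them above 0 and 1 below, against 14.6% of all genes. The count was 3 without the first standard TNBS sample, 5 without the first or the second curcumin TNBS sample, and 3 with the acinar term, whose list median was 0.12. When the array set was a term, 13 of the 37 were higher and 0 lower, beside 2.82% and 2.64% of all genes.

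Gclc and Gclm, the catalytic and modifier subunits of glutamate-cysteine ligase, the first step of glutathione synthesis, both met the rule for similar size. Gclc signals were 806.5, 717.6 and 472.7 on standard diet and 829.9, 1352.2 and 848.8 on curcumin with the control enema. Their TNBS counterparts were 540.5, 739.7 and 451.4 against 961.1, 811.9 and 582.9. The diets were apart with the control enema and overlapped with TNBS. The difference of Gclc was 0.52 ± 0.19 (unadjusted p = 0.0148), 0.60 and 0.44, and 0.41 with the acinar term, while a second Gclc probe set gave 0.18 (unadjusted p = 0.447). Gclm was at 712.8, 586.8 and 590.3 against 770.3, 905.6 and 686.3 with the control enema, and at 455.8, 609.8 and 627.9 against 850.1, 759.8 and 529.5 with TNBS. Curcumin arrays overlapped standard arrays under both enemas. The difference of Gclm was 0.32 ± 0.13 (unadjusted p = 0.0327), 0.32 under each enema, and 0.25 with the acinar term.

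Akr1b8, an aldo-keto reductase that reduces reactive aldehydes, had the smallest p of the list. Its signals were 1638.7, 1539.2 and 1156.5 on standard diet and 2456.0, 2899.5 and 2662.4 on curcumin with the control enema. In the TNBS groups the values were 1496.1, 1916.3 and 1568.6 against 2218.3, 2036.9 and 1856.1. The diets were apart with the control enema and overlapped with TNBS. The difference was 0.60 ± 0.13 (unadjusted p = 0.000496), but 0.90 under the control enema and 0.30 under TNBS, outside the rule, with an unadjusted interaction p of 0.0139. The carbonyl reductase Cbr1 (0.55, with 0.46 and 0.65) and Me1 (0.36 and 0.63) were of similar size. Catalase, Ugdh, which makes UDP-glucuronic acid, and the transferase Gstm1 owed their differences to the TNBS arrays, with -0.08, 0.05 and 0.04 under the control enema and 0.95, 0.65 and 0.63 under TNBS.

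Other well-known Nrf2 targets had no unadjusted p under 0.05. Nqo1, the quinone reductase, was at 0.23 ± 0.12 (unadjusted p = 0.0808), with 0.19 and 0.26 under the 2 enemas, of similar size and equal to the list medians, and it reached -0.03 within the first array set. Txnrd1, thioredoxin reductase, was at 0.06 ± 0.08, with 0.17 and 0.23 on its other probe sets, and Slc7a11, the cystine antiporter, at -0.18. Hmox1, heme oxygenase, was dim, at 8.1 to 202.2 over the 12 arrays, and its difference of -0.11 ± 0.68 turned sign with single arrays. Gsta2 was at -0.02 ± 0.27 and Gpx2, the glutathione peroxidase of gut epithelium, at -0.28.

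Among P450 enzymes, glucuronidation and sulphation, 11 of 38 measured genes were higher at an unadjusted p under 0.05 and 0 were lower, but chiefly through the TNBS arrays. The list median was 0.03 under the control enema and 0.41 under TNBS. Ugt2b5, a glucuronosyltransferase, was at 0.20 and 1.59, and Cyp4b1, a P450 of fatty acids and xenobiotics, at 0.35 and 1.07. The microsomal glutathione transferases Mgst2 (0.20 and 0.33) and Mgst3 (0.21 and 0.37) and the P450 Cyp2c65 (0.40 and 0.43) met the rule for similar size. The count was 6 without the first curcumin TNBS sample, 7 without the second, 17 without the third curcumin control sample and 6 with the acinar term. In the aryl hydrocarbon receptor battery, 0 of 12 had an unadjusted p under 0.05 in limma, with a median of 0.14 that came from the TNBS arrays (0.00 under the control enema and 0.34 under TNBS), and of 0.05 with the acinar term. Its best known target Cyp1a1 was dim, at 31.5 to 279.3, and its difference was 0.70 ± 0.39 (unadjusted p = 0.094).

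**Figure D3:**
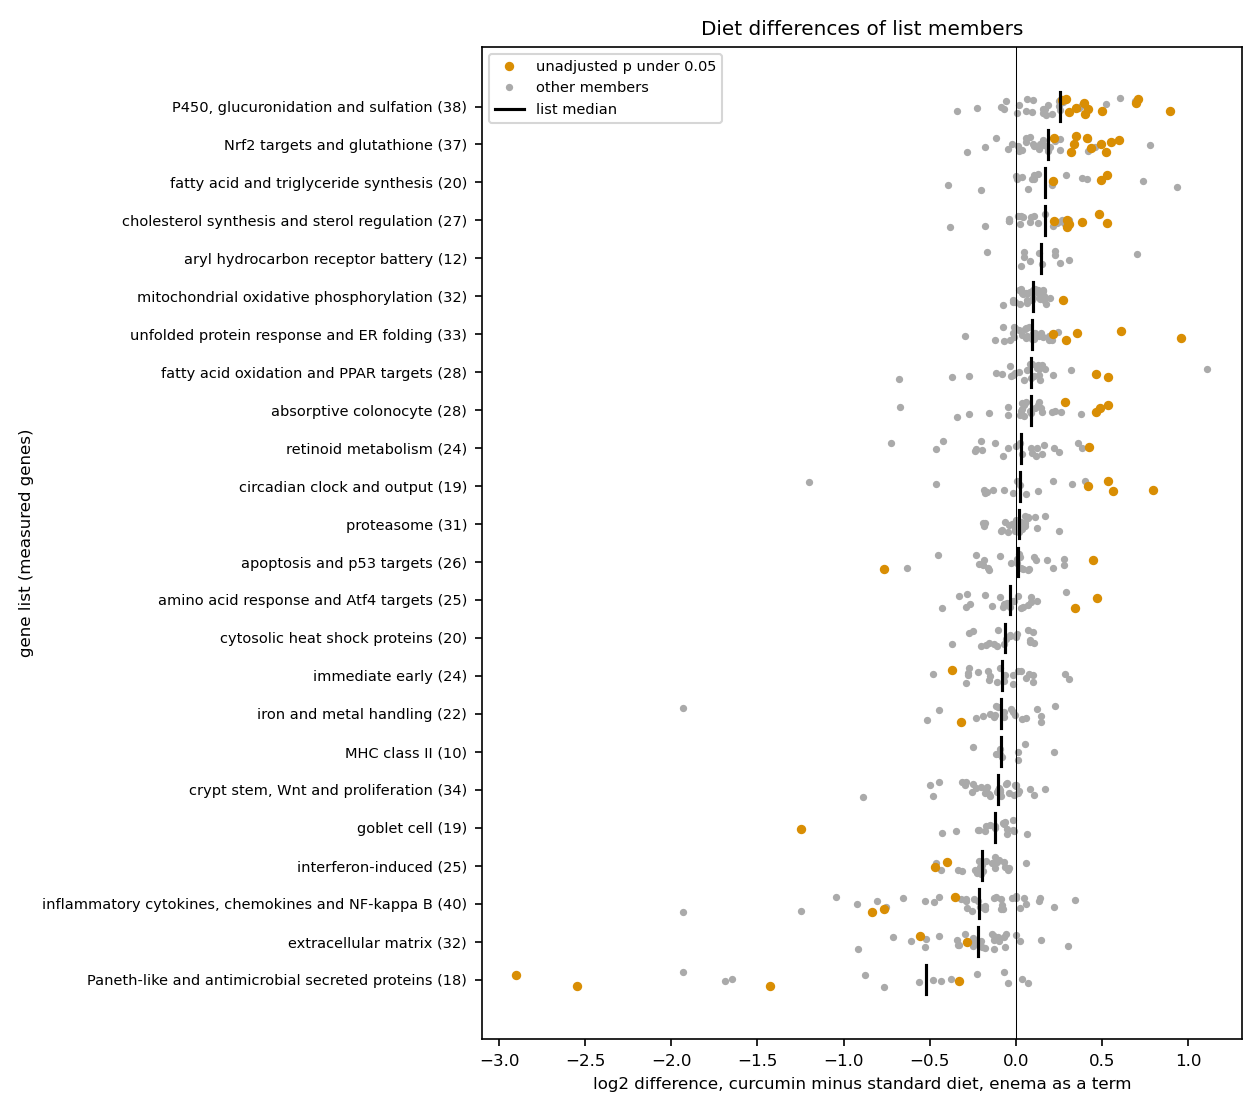
Log2 diet difference over both enemas for each measured member of 24 gene lists (points, orange at an unadjusted p under 0.05) with the list median (bar). The lists of P450 enzymes, Nrf2 and glutathione, fatty acid synthesis and cholesterol synthesis have medians of 0.17 to 0.25, and the list of Paneth-like and antimicrobial secreted proteins has a median of -0.52.

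By the rule for naming genes, the 12 higher and the 12 lower genes of smallest p with similar size and a signal above the 40th percentile were taken. The rule used these values, so their size and p are a description. Unadjusted p ran from 0.000312 to 0.00308 for the higher genes and from 0.00026 to 0.00454 for the lower, the differences from 0.29 to 0.71 and from -0.999 to -0.32. All 24 kept their sign within both array sets. When the array set was a term, 10 of the 12 higher and 10 of the 12 lower genes were still of similar size. The genes were chosen on these same arrays, and each set holds 3 arrays of each diet. These counts were therefore largely fixed by the choice and are no separate support. With the acinar term they ran from 0.23 to 0.59 and from -0.83 to -0.35.

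First among the higher genes was Slc3a1, the heavy subunit that brings the cystine and dibasic amino acid transporter to the brush border. Its signals were 541.2, 566.1 and 720.6 on standard diet and 1144.5, 1037.5 and 742.2 on curcumin with the control enema. With TNBS they were 610.9, 663.8 and 421.4 against 780.5, 1035.6 and 994.7. All curcumin arrays were above all standard arrays, the third curcumin control array by little. The difference was 0.71 ± 0.15 (unadjusted p = 0.000312), 0.67 and 0.74, and 0.61 to 0.79 over the fits that left out an array. Dpep1, a membrane dipeptidase that splits cysteinylglycine from glutathione breakdown, was at 0.40 (0.37 and 0.42), and at 0.31 on a second probe set. Qdpr, which regenerates the cofactor tetrahydrobiopterin, was at 0.39 (0.31 and 0.47) on a probe set that can match related transcripts and at 0.19 on another.

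Ndrg1, a stress-induced gene of differentiated epithelium, was at 0.43 (0.54 and 0.31), with 0.67 and 0.16 within the array sets, and was not of similar size with the array set as a term. Its other probe sets gave 0.19 to 0.45. Trim2, a ubiquitin ligase, was at 0.36 (0.31 and 0.41) with all curcumin arrays above all standard arrays, while its other 3 probe sets gave 0.05 to 0.16. Ly6g6c, a small surface protein of the Ly6 family, was at 0.64 (0.49 and 0.78), and at 0.37 and 0.91 when the array set was fitted, no longer of similar size. Ikbkg, the NEMO subunit of the kinase that releases NF-kappa B, was at 0.36 (0.30 and 0.41) on a probe set that can match related transcripts, and its other probe sets gave 0.07 to 0.78. With Dnajb9, Hmgcs1, Msmo1, Fdft1 and Stard4, described above, these make the 12.

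First among the lower genes was Slc25a22, the carrier that takes glutamate into mitochondria. Its signals were 688.9, 950.7 and 843.7 on standard diet and 514.1, 496.5 and 539.1 on curcumin with the control enema. The TNBS values were 815.3, 806.1 and 756.4 against 599.9, 617.3 and 661.5. All curcumin arrays were below all standard arrays. The difference was -0.50 ± 0.10 (unadjusted p = 0.00026), -0.67 and -0.34, and -0.43 with the acinar term. Ndufa12, a subunit of respiratory complex I, was at -0.66 (-0.49 and -0.83) on one probe set while 2 others of like signal gave 0.09 and 0.11 and a dim one -0.42, so its probe sets disagreed. Ero1b, an ER oxidase that drives disulphide formation, was at -0.60 ± 0.15 (-0.55 and -0.65) with all arrays apart, while its other probe sets gave -0.07 and 0.01. Its sign was opposite to that of Hspa5 and Dnajb9, and its paralogue Ero1a was at -0.02. Strbp, an RNA-binding protein, was at -0.55, with 0.07 and 0.38 on its other probe sets.

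Several of the lower genes act in inflammation. Nfkbia, the inhibitor of NF-kappa B and itself a target of it, had signals of 1787.6, 1591.4 and 1862.0 on standard diet and 1366.1, 1347.9 and 1281.5 on curcumin with the control enema. Under TNBS the signals read 1743.3, 1570.1 and 1691.0 against 1451.1, 1570.5 and 1229.8. The diets were apart with the control enema and overlapped by a single pair of arrays with TNBS. The difference was -0.32 ± 0.08 (unadjusted p = 0.00198), -0.39 and -0.24, and the other probe sets gave -0.38 to -0.11.

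Casp4, the mouse caspase-11 that senses bacterial lipopolysaccharide inside cells, had signals of 592.2, 475.7 and 406.8 on standard diet and 179.6, 399.2 and 236.4 on curcumin with the control enema. On the TNBS arrays they stood at 434.2, 576.3 and 399.9 against 392.3, 236.9 and 302.5. All curcumin arrays were below all standard arrays, with the nearest pair almost level. The difference was -0.76 ± 0.20 (unadjusted p = 0.00237), -0.92 and -0.61. A term for the array set made these -1.08 and -0.45, no longer of similar size. Ifi47, an interferon-induced GTPase, was at 372.1, 408.8 and 405.5 against 242.3, 361.0 and 318.2 with the control enema and at 540.4, 522.8 and 458.8 against 353.0, 348.8 and 331.1 with TNBS. Again the diets were fully apart. The difference was -0.47 ± 0.12 (unadjusted p = 0.00166), -0.38 and -0.56.

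Csf1, the growth factor of macrophages, was at -0.40 (-0.51 and -0.29) with all arrays apart, although its other probe sets gave -0.14 to -0.02. Saa1, an acute-phase protein also made by colonic epithelium, was at -0.39 (-0.37 and -0.41) on a probe set that can match other Saa genes, and at -0.18 on another. Clu, the secreted chaperone clusterin, had signals of 388.5, 670.7 and 763.7 against 474.2, 311.2 and 280.2 with the control enema and of 1210.5, 540.5 and 1548.6 against 423.6, 376.1 and 480.6 with TNBS. Arrays overlapped with the control enema and were apart with TNBS. The difference was -0.999 ± 0.26 (unadjusted p = 0.00172), -0.76 and -1.24, and the other 3 probe sets gave -0.68 to -0.57. A term for the array set made the differences under the 2 enemas -0.59 and -1.41, no longer of similar size.

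The remaining lower genes act in epithelial sodium transport and sealing. Sgk1, the kinase through which aldosterone and glucocorticoids raise sodium uptake, was at -0.72 ± 0.21 (-0.66 and -0.78), and at -0.39 with the acinar term. Cldn8, the tight-junction claudin that limits sodium back-leak in the distal colon, was at -0.61 ± 0.17 (-0.50 and -0.73), and at -0.69 with the acinar term. In both genes the diets overlapped with the control enema and were narrowly apart with TNBS. With the control enema, the highest curcumin and lowest standard signals were 2214.0 and 1742.3 for Sgk1 and 871.1 and 756.8 for Cldn8.

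Few members of the inflammatory lists had an unadjusted p under 0.05, and whether the lists differed between the enemas was not tested. Of 25 interferon-induced genes, 24 were below 0, 14 of them under both enemas, with medians of -0.11 and -0.28. Over all 12393 genes, 48.2% were above 0 and 2562 were below 0 under both enemas. At an unadjusted p under 0.05, 2 were lower, Ifi47 and Usp18 (-0.40, with -0.47 and -0.32), the protease that removes ISG15, and both were of similar size. In Ifi47 alone of the 25 the diets did not overlap within either enema, against 0.129% of all genes lower in that way. Of 40 measured members of the list of cytokines, chemokines and NF-kappa B, 3 were lower and 0 higher. The list medians were 0.00 under the control enema and -0.57 under TNBS. The 3 were Il1b (0.04 and -1.57), Nfkbiz (-0.22 and -0.48) and Duoxa2 (-0.33 and -1.34), of which none was of similar size. Duoxa2 was on the list but is itself neither a cytokine nor a chemokine. The count of lower members was 0 without the first curcumin TNBS sample and 8 without the third curcumin control sample.

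Of 18 Paneth-like and antimicrobial secreted proteins, 4 were lower (Itln1, Reg1, Lyz1 and S100a8), with list medians of 0.14 and -1.09. S100a8 is also among the 5 neutrophil markers summed below. Itln1, an intestinal lectin that binds microbial sugars, was lower chiefly under the control enema (-2.52 against -0.34), where the standard arrays read 998.9, 218.0 and 420.2 and the curcumin arrays 45.7, 157.5 and 67.6. Reg1, a lectin also abundant in pancreatic acinar cells, was the one of similar size (-2.31 and -3.49). The count was 8 without the third curcumin control sample, and 2 without the first curcumin control, the third standard TNBS or the third curcumin TNBS sample. With the acinar term, 1 of the 18 was lower and the list median was -0.26. Of 19 goblet cell genes, 18 were below 0, where 48.2% of all genes were above 0, and the list median was -0.12. At the unadjusted threshold 1 was lower, the membrane mucin Muc1 (-1.25 ± 0.42, with -0.70 and -1.80, and -0.75 with the acinar term). Muc2 and Ang4 have no probe set on 430A annotated to them alone.

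Of 28 absorptive colonocyte genes, 4 were higher, the chloride exchanger Slc26a3 (0.12 and 0.45), the water channel Aqp8 (0.20 and 0.73), the phosphate carrier Slc20a1 (-0.01 and 1.00) and the fatty acid binding protein Fabp2 (0.25 and 0.82). None was of similar size, and 1 of the 28 was higher with the acinar term. Of 19 circadian genes, 4 were higher, the clock outputs Dbp (0.28 and 1.31) and Tef (0.17 and 0.67), the repressor Nr1d2 (0.11 and 0.96) and Per3 (0.12 and 1.01), each with its larger difference under TNBS, and 1 of the 19 was higher with the acinar term. Of 32 extracellular matrix genes, 2 were lower, Mmp9 (0.12 and -1.24) and Mmp14 (-0.10 and -0.47), and the list medians were 0.04 and -0.55. That count was 14 without the third curcumin control sample, 0 without the second or the third standard TNBS or the third curcumin TNBS sample, and 0 with the acinar term. Without the third curcumin control sample, 989 probe sets had an unadjusted p under 0.05 and 44.3% of them were higher.

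The diet by enema interaction tested whether a diet difference itself differed between enemas. In limma, 0 of 22626 probe sets passed (0%), the smallest adjusted p was 0.246, and 1842 (8.14%) had an unadjusted p under 0.05. With the array set as a term in limma, 0 passed, the smallest adjusted p was 0.162 and 2715 (12.0%) had an unadjusted p under 0.05. The 5 genes of smallest interaction p were Lcn2, Lbp, Rgs5, Igfbp4 and Timp1. Lcn2, the siderophore-binding lipocalin of inflamed epithelium, had signals of 56.9, 114.4 and 72.8 on standard diet and 82.1, 101.1 and 710.1 on curcumin with the control enema. Their TNBS counterparts were 6003.1, 2957.2 and 5714.3 against 134.5, 123.0 and 159.0. Only the standard TNBS arrays were high, apart from the third curcumin control array. Its diet difference was 1.21 under the control enema and -5.08 under TNBS, so that the value over both, -1.93 ± 0.97, describes neither. Lbp, which carries lipopolysaccharide to its receptor, was at 0.27 and -1.68. Timp1, the inhibitor of metalloproteinases, was at 1.08 and -2.30, Igfbp4, a binder of insulin-like growth factors, at 0.38 and -0.94, and Rgs5, a pericyte and smooth muscle regulator of G proteins, at -0.52 and 0.77. For the 24 named genes the unadjusted interaction p ran from 0.104 to 0.894, which with 3 arrays per group does not show that the differences were equal.

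Cell type markers were compared between the diets under each enema. Summed signals of 6 absorptive colonocyte markers were 41236.7 to 49615.6 on standard diet and 45623.8 to 60096.0 on curcumin with the control enema, and 39465.7 to 45280.6 against 42593.9 to 46699.1 with TNBS. The ranges overlapped under both enemas, and so did those of the goblet and smooth muscle markers. The 5 neutrophil markers summed to 555.1 to 782.0 and 737.9 to 903.4 with the control enema, and to 3770.3 to 7659.8 on standard diet and 400.1 to 1190.3 on curcumin with TNBS, where the diets were apart. With TNBS the diets were also apart for 5 monocyte and macrophage markers (5906.2 to 6365 on standard diet and 4263.2 to 5146.2 on curcumin) and for 4 endothelial markers (1200.1 to 1322.6 and 877.9 to 1155.1). With the control enema the ranges of both overlapped. The inflammatory and matrix lists above had medians below 0 on the same TNBS arrays, and the part of these markers in those lists was not tested. The 7 acinar markers summed to 3188.5 to 98710.5 on standard diet and 2739.5 to 43979.7 on curcumin with the control enema, and to 32578.8 to 91088.6 and 3071.1 to 74984.5 with TNBS.

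**Figure D4:**
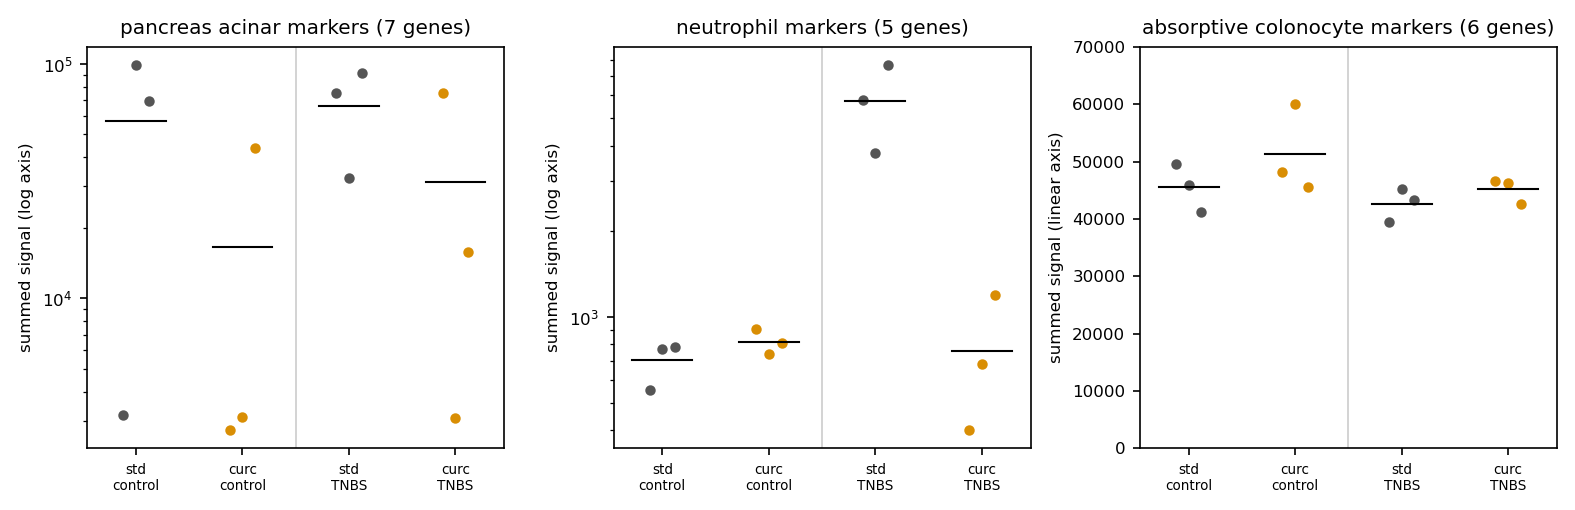
Summed signal of 7 pancreas acinar and 5 neutrophil markers (log axes) and of 6 absorptive colonocyte markers (linear axis) on each array, with the group mean as a bar, for standard (std) and curcumin (curc) diet and each enema. The lowest acinar sums of 3 groups are 3188.5, 2739.5 and 3071.1 while the highest of every group is above 10000, and the neutrophil sum is high only in the standard TNBS group.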

How the data were processed

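Total RNA of whole mouse colon was hybridised to Affymetrix 430A arrays. The file holds deposited signal values, linear intensities from GCOS per the submitters' processing notes. The sources used here give no version of it. Every array had a 2% trimmed mean near 500.1, a common scale, and no further scaling was applied. Median signals ran from 226.8 to 284. The number of arrays sets the precision. Of 66 pairs of arrays, 0 were identical.

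Of 22690 probe sets, 64 control probe sets were left out. Of the other 22626, 20380 have 1 gene symbol in the platform annotation, 691 have several and 1555 have none, and no gene is named from a probe set with several. Of the 20380, 20351 were matched to RefSeq by gene number. Probe sets whose identifiers end in _s_at or _x_at can match related transcripts.

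Log2 signals were fitted in limma 3.58.1 with R 4.3.3 (lmFit, eBayes with an intensity trend) on diet with enema as a term, two-sided, with Benjamini-Hochberg adjustment over all 22626 probe sets. A fit with a mean per group gave the difference under each enema and the interaction. Diet differences had a similar size when both had the same sign and the smaller was at least 0.5 of the larger. Lists use 1 probe set per gene, that of highest mean, for 12393 genes, and carry no set test. The fit was tried on simulated data with independent noise on each array. That simulation held no array sets and no acinar variation, so it says nothing of how the fit deals with them. The members, the lists and the choice of the comparison were made with earlier results of these data known.

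Fewer than 10 genes passed, so by the rule for naming genes the 12 higher and 12 lower genes of smallest p with a similar size and a mean above the 40th percentile were named, with the 5 genes of smallest interaction p and 17 genes named whatever their p, of which 4 have no probe set of their own on 430A. List members named besides these were chosen after their values were seen. Array sets are the signs of the first principal component. Alternatives were leaving out dim probe sets (below the 40th percentile), pseudocounts of 16 and 64, quantile normalisation, median centring, array weights, no intensity trend, the array set as a term, each array left out, and, chosen after seeing the data, the log2 sum of the acinar markers as a term.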

Additional observations from a re-analysis of the deposited data

How the results depend on the processing

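No paired analysis was possible because the labels number the samples without sharing a number between groups. The count of probe sets past the threshold for diet, 0 in limma, was 1 with the filter, with quantile normalisation, with array weights and with array set and filter together, each time 1421041_s_at, and that probe set was of similar size, so the count of similar size was also 1 there. Both counts were 0 to 0 over the fits without 1 array. The count at an unadjusted p under 0.05 was 1599 with array weights, 1147 with the array set, 1168 with array set and acinar markers, and 392 to 989 without 1 array, the highest without the third curcumin control sample. The count for the diet by enema interaction was 1186 with array weights, 2 with the acinar term (Reg3d and Lcn2) and 0 to 3 without 1 array (Rgs5, Lcn2 and Lbp without the first curcumin control sample, Lcn2 alone without the third). For the diet by enema interaction, unadjusted p under 0.05, the count was 6815 with array weights, 2863 with array set and acinar markers, and 1236 to 2851 without 1 array. The cause of these moves was not tested. Of the 41 genes named by rule, Nqo1 turned to -0.031 within the first array set. Hmox1 turned to 0.0026 with a pseudocount of 64, 0.035 with array weights, 0.052 within the first array set and -0.50 to 0.42 without 1 array. These were the only reversals among the 41, 4 with another setting and 4 without 1 array. The other 566 and 488 values kept their sign. They also kept their side of the threshold where an adjusted p was computed, which it was not within the array sets. All 41 lay far above the threshold in the main fit, so keeping that side was close to fixed. Other list members named were not followed in this way. With 3 arrays per group and a median SE of 0.21, small differences on the log2 scale were not detectable after adjustment.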
